A study of Mus musculus with 9 samples.

Results

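Rab genes were taken as every gene of the series gene table whose symbol is Rab followed directly by a digit. The rule found 70 table rows, which are 65 genes of the 29261 in the table. Of these, 56 encode Rab GTPases and 9 encode proteins that bind Rab GTPases (Rab11fip1 to Rab11fip5, Rab3gap1, Rab3gap2, Rab3ip and Rab3il1), so the label of Rab GTPase mRNAs fits 56 of the 65, and both kinds were kept apart below.

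The tags come from crosslinking and immunoprecipitation (HITS-CLIP), in which ultraviolet light joins a protein to the RNA it touches and the RNA fragments that come down with the protein are sequenced. FMRP, the RNA-binding protein that is missing in fragile X syndrome, was precipitated in 7 libraries and the neuronal Hu proteins in 2, all from polyribosomes of cortex and cerebellum freed of white matter, taken from pooled FVB littermates. The first 5 FMRP libraries were dissociated in 1% SDS and read on the 454 platform: monoclonal antibodies 7G1-1 and 2F5 at postnatal days (P) 14, 15 and 25, and polyclonal antibody ab17722 at P14 and P25. The other 2 FMRP libraries (ab17722) and both Hu libraries (a human antiserum) were dissociated in 2% SDS and read on Illumina, with 1 library of each protein at P11 and 1 at P13, made from the same 2 lysates. The protocol names male wild-type and Fmr1-null littermates for the 454 libraries, and Fmr1-null libraries were not analysed here. Each library is a pool of mice and libraries of a group differ in age, and a p-value here covers only how far such pools differ, which may be in part technical.

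Rab GTPases are small proteins that switch between a GTP-bound form on a membrane and a GDP-bound form in the cytosol, and each marks a set of membranes and recruits the proteins that move, tether or fuse them. Exchange factors load GTP, and GTPase-activating proteins end the active state. In neurons, Rab3 and Rab27 proteins act on synaptic and secretory vesicles, Rab5, Rab11 and relatives on endosomes that recycle receptors, and Rab1, Rab2 and Rab6 on transport through the endoplasmic reticulum and Golgi. FMRP is known mainly for tags in coding sequence, and Hu proteins for binding U-rich stretches of 3′ untranslated regions (UTRs).

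Transcript tags numbered 4397 to 7713 per 454 library and 25873 to 49847 per Illumina library. Levels are given as CPM, tags per 1000000 transcript tags of the library. A count of 0 allows up to 3 tags, which ranges from 60.2 CPM in the deepest library to 682 CPM in the shallowest. All 6 neuronal markers checked carried tags (430 from FMRP and 824 from Hu). The 4 oligodendrocyte markers carried 125 FMRP and 677 Hu tags, and the 4 astrocyte markers 40 and 8. Microglial markers carried 5 FMRP tags and 1 Hu tag, and endothelial markers 4 and 1. These are raw sums over all libraries of each protein, which differ in number and depth. By library, oligodendrocyte markers ranged from 112 to 2201 CPM in FMRP and from 4831 to 11074 CPM in Hu. Astrocyte markers ranged from 0 to 765 CPM and from 77.3 to 120 CPM. Whether oligodendrocyte RNA adds to any Rab value was not tested, and more RNA per cell and more cells of a type cannot be told apart in these samples.

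The GTPase mRNAs had short coding sequences of similar length. The noncoding part had a median of 1636 nt, against 1073 nt over all genes and 1845 nt over genes with an FMRP tag. Their coding sequences had a median of 657 nt, from 585 to 894 nt, on transcripts with a median of 2257 nt (55 genes with a length). Coding sequence made up a median of 28.7% of the transcript, against 56.03% over all 19079 genes with lengths and 48.6% over genes with an FMRP tag. Their median brain exon array intensity, deposited in the same table from another measurement, was 351, against 113 over all genes and 262 over genes with an FMRP tag. The 7 Rab-binding proteins with a length had a median coding length of 1908 nt and a coding part of 49.6%.

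In the authors' gene table, 45 of the 65 genes carried at least 1 FMRP tag, 304 tags in all. Of the GTPases 66.1% had an FMRP tag, against 30.5% of all genes in the table. By that table, which lists Rab11fip3 at 0, no Rab gene was tagged in all 7 FMRP libraries. The widest spread in it was that of Rab3a, a synaptic vesicle GTPase, in 6 libraries, and 8 genes had tags in 4 or more. On the transcript lists, which cover both proteins, 40 genes had a Hu tag and 14 had no tag of either kind, and 11 had no tag in either source. Across the 55 GTPases with values, tag number followed array intensity with a Spearman rho of 0.58 for Hu and 0.60 for FMRP, and noncoding length with 0.48 and 0.41. The Hu and FMRP tags of the Illumina libraries had a rho of 0.79. These correlations are descriptions: all GTPases share the libraries and the pools behind them.

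Rab GTPase mRNAs took a larger share of Hu tags than of FMRP tags in every library, and the mean share of the Rab-binding proteins was higher in FMRP, where Rab11fip3 alone held 25 of their 46 tags on 454 and 25 of 81 on Illumina. Of all transcript tags, the 56 GTPases held 0.951% in the P11 and 1.05% in the P13 Hu library. They held 0.164% and 0.334% in the P11 and P13 FMRP libraries on Illumina, and 0.181% ± 0.0651 (SD, n = 5) on 454, where the highest library reached 0.276%. The 2 Hu libraries thus lay above all 7 FMRP libraries. The 9 binding proteins held 0.0734% and 0.0542% of Hu tags, 0.134% and 0.102% of FMRP tags on Illumina, and 0.146% ± 0.0660 (SD, n = 5) on 454. The lowest of the 454 libraries, at 0.0682%, fell between the Hu libraries. Without Rab11fip3, which the authors' gene table lists at 0, the shares were 0.0659% ± 0.0732 (SD, n = 5) on 454 and 0.0970% and 0.0681% on Illumina at P11 and P13, and the FMRP and Hu libraries overlapped. A share summed over chosen genes was not tested.

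**Figure D1:**
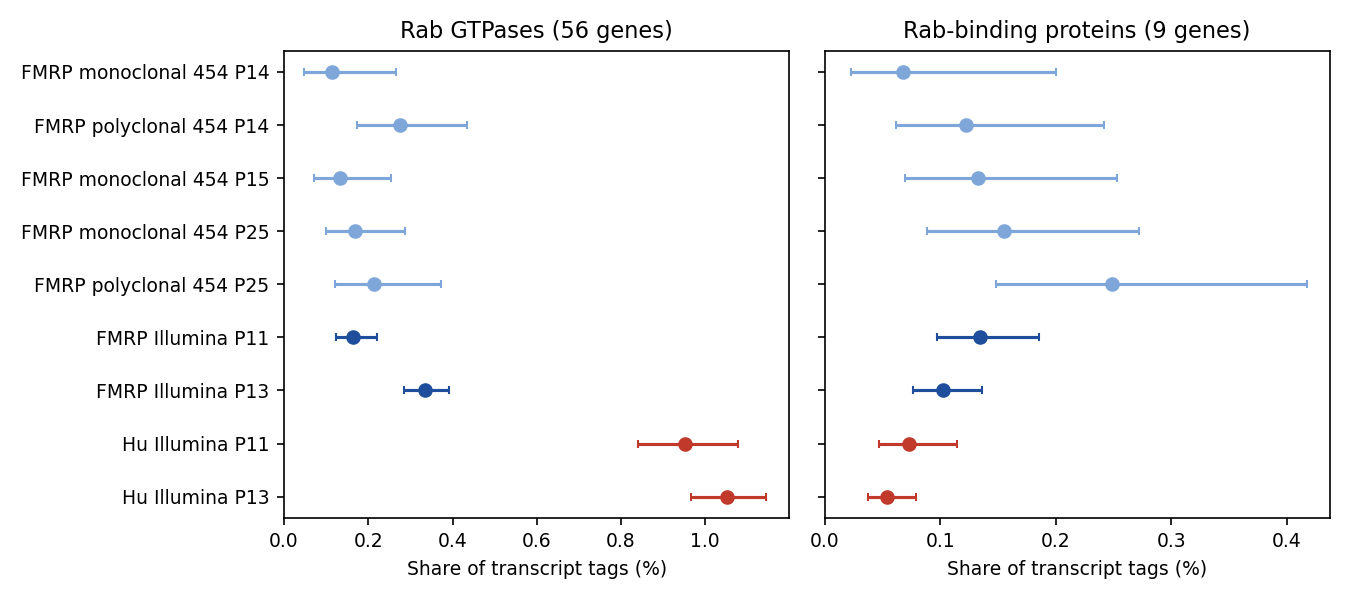
Share of transcript tags (%) held by the 56 Rab GTPases (left) and the 9 Rab-binding proteins (right) in each of the 9 libraries, with 95% Wilson intervals that cover counting error only (light blue, FMRP on 454; dark blue, FMRP on Illumina; red, Hu). Both Hu libraries sit near 1% for the GTPases, and no FMRP library exceeds 0.334%; the 2 horizontal axes differ in scale.

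The excess of Hu tags was spread over the larger role groups. GTPases of early and recycling endosomes and surface delivery (19 genes) held 363 Hu and 69 FMRP tags on Illumina. Those of the endoplasmic reticulum and Golgi (16 genes) held 337 and 86. The 8 GTPases of regulated secretion and synaptic vesicles held 52 and 20, and the 7 of late endosomes and lysosomes held 8 and 3. The 6 other GTPases held 10 and 13, while the binding proteins held 46 and 81, the latter with the 25 of Rab11fip3. Of all 56 GTPases, 27 had more Hu tags, 9 more FMRP tags, 3 equal numbers and 17 none of either. These are raw tags from libraries that differ in depth, and the same counts over all genes were not taken. The 10 Rab genes with most Hu tags held 642 of the 816, or 78.7%.

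The 2 proteins were compared gene by gene on the 4 Illumina libraries with edgeR's quasi-likelihood test on tag counts. Over the whole table, 1015 genes could be tested. At an adjusted p below 0.05 (Benjamini-Hochberg over these genes), 341 of them (33.6%) were called toward FMRP and 277 (27.3%) toward Hu. Only 10 of the 65 Rab genes, 8 of them GTPases, passed the filter on low counts. The filter needs a high enough level in at least 2 of the 4 libraries. Rab6, Rab11b, Rab10 and Rab11a were higher in Hu, Rab11fip3 was higher in FMRP, and 5 did not pass. Since 27.3% and 33.6% of all genes tested were called in these directions, 4 and 1 of 10 are not a result about the Rab genes as a set. A gene could pass this filter through 1 protein alone, as all tested GTPases but Rab6b did through Hu. The direction of the genes tested is thus set in part by the filter.

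Rab6, known as Rab6a in current naming and a GTPase of the Golgi (chr7:107756277-107790149, mm9), was the Rab gene with most Hu tags. It had 45 and 108 tags in the P11 and P13 Hu libraries, against 5 and 10 in the FMRP libraries from the same lysates. The 454 FMRP libraries gave 0, 1, 0, 5 and 1 (monoclonal P14, polyclonal P14, monoclonal P15, monoclonal P25, polyclonal P25). In CPM this is 1739 and 2167 in Hu and 187 and 227 in FMRP, so both Hu libraries lay far above both FMRP libraries. At these levels the gene passed the filter on low counts through Hu alone. The normalized ratio was 7.80-fold higher in Hu (exact 95% counting interval 4.58 to 14.3). The log2 ratio of FMRP over Hu was -2.92 (SE 0.64), or -2.75 relative to the median of all genes tested, with an edgeR adjusted p of 0.00504. Rab6 was the only Rab gene higher in Hu whose call held under all 12 alternative settings, with adjusted p from 8.26e-07 to 0.0469.

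Rab6b (chr9:103014404-103087600), the neuron-enriched paralog of Rab6, differed less. It had 28 and 51 Hu tags and 8 and 24 FMRP tags on Illumina, the most FMRP tags of any GTPase, and 0, 4, 3, 1 and 4 on 454 in the order above. Its Hu levels of 1082 and 1023 CPM lay above its FMRP levels of 299 and 545. The log2 ratio of -0.97 (SE 0.65) did not pass the test (edgeR adjusted p = 0.210). Per kilobase of transcript Rab6 held 43.6 Hu tags and 4.27 FMRP tags on Illumina, and Rab6b held 16.7 and 6.76. A difference between the paralogs was not tested.

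The recycling endosome GTPases Rab11a (chr9:64563107-64585563) and Rab11b (chr17:33879429-33897431) and the surface delivery GTPase Rab10 (chr12:3247430-3309933) shared 1 pattern over the Illumina libraries. Rab11b had 23 and 39 Hu tags (P11 and P13) and 0 and 8 FMRP tags. Rab10 had 28 and 38 Hu tags and 0 and 9 FMRP tags. Rab11a had 25 and 33 Hu tags and 0 and 8 FMRP tags. In each gene the Hu libraries did not overlap the FMRP libraries on Illumina, where every FMRP tag came from P13. On 454 the genes differed. Rab11b had 2 FMRP tags in polyclonal P14 and 4 in monoclonal P25 (519 CPM). Rab10 had 1 in polyclonal P14 and 1 in polyclonal P25, and Rab11a had 0. The log2 ratios were -2.62 (SE 0.95) for Rab11b, -2.59 (SE 0.97) for Rab10 and -2.57 (SE 0.96) for Rab11a, with edgeR adjusted p of 0.0378, 0.0414 and 0.0414. Relative to the median of all genes these are -2.46, -2.43 and -2.41. All 3 calls were lost without the P11 FMRP library, with log2 ratios of -1.37 for Rab11b, -1.33 for Rab10 and -1.32 for Rab11a and adjusted p of 0.289, 0.297 and 0.312. Without the P11 Hu library the ratios were as large, at -2.75, -2.55 and -2.51, and missed the threshold (adjusted p 0.0547, 0.0695 and 0.0701). Without the P13 Hu library, Rab11b (-2.35) and Rab11a (-2.46) missed it too (0.107 and 0.0674). Without the P13 FMRP library, which leaves 0 FMRP tags in each gene, all 3 passed (0.00321, 0.00268 and 0.00339).

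Rab14, Rab8b and Rab1 had higher Hu than FMRP levels in both libraries and did not pass. Rab14, an endosome to Golgi GTPase, had 15 and 45 Hu tags and 1 and 13 FMRP tags, with a log2 ratio of -1.70 (SE 0.86, edgeR adjusted p = 0.107). With the lysate as a block it passed, at -1.96 and an adjusted p of 0.0426. Rab8b, which acts in delivery to the cell surface, had 13 and 17 Hu tags and 0 and 7 FMRP tags (log2 ratio -1.75, SE 0.82, edgeR adjusted p = 0.0859). Rab1, which acts between endoplasmic reticulum and Golgi, had 10 and 37 Hu tags and 5 and 8 FMRP tags (log2 ratio -1.36, SE 0.70, edgeR adjusted p = 0.112). Without the P13 FMRP library, which holds 13 of the 14 FMRP tags of Rab14 and all 7 of Rab8b, both genes passed, with adjusted p of 0.0244 and 0.0413.

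Further GTPases did not pass the filter on low counts. In Rab21 and Rab3a only the P13 Hu library reached the level it needs, though both hold more tags than Rab8b, which was tested. Rab21, an early endosome GTPase, had 7 and 40 Hu tags and 0 and 4 FMRP tags, which is 271 and 802 against 0 and 90.8 CPM. Rab3a had 6 and 34 Hu tags and 2 and 12 FMRP tags on Illumina. Its P11 Hu level of 232 CPM lay below its P13 FMRP level of 272, so the groups overlapped. Counted over all genes with an Illumina tag, tested or not, both Hu levels lay above both FMRP levels in 2083 of 10338 genes (20.1%) and in 16 of the 39 GTPases with such a tag. This needs a tag in both Hu libraries and so depends on tag number, for which the genes were not matched.

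**Figure D2:**
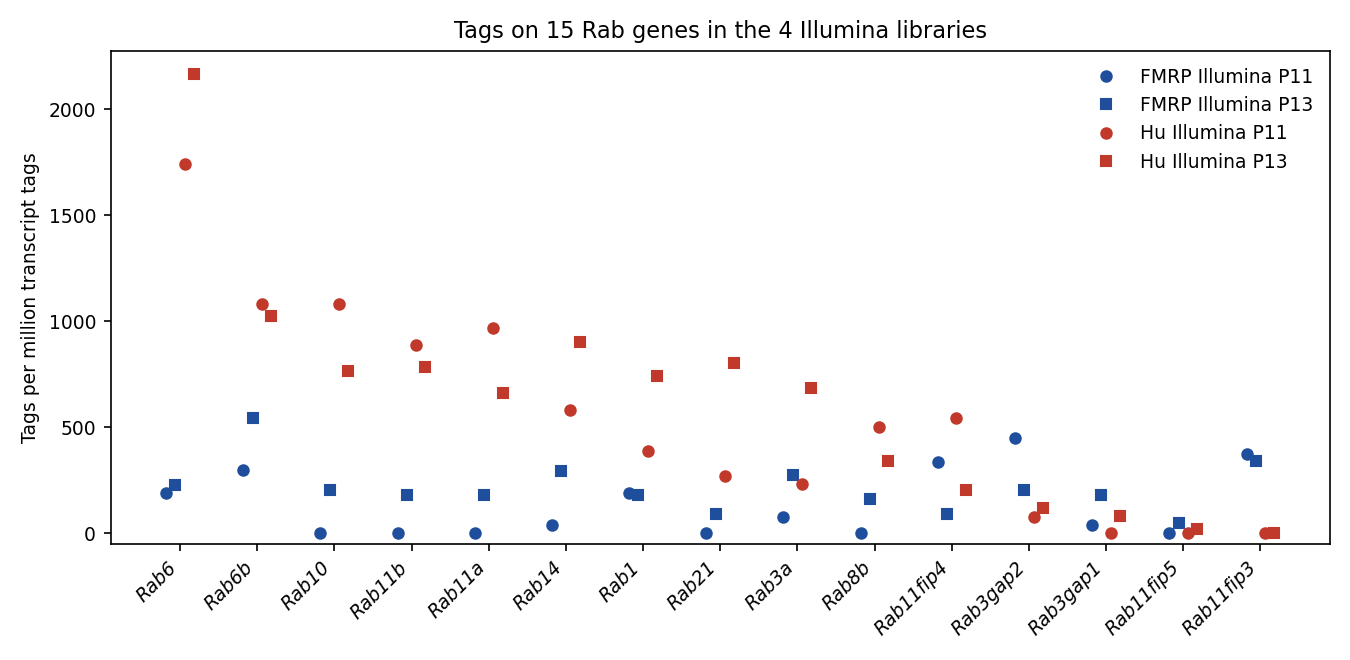
CPM (tags scaled to a library total of 1000000 transcript tags) in the 4 Illumina libraries for the 15 Rab genes named by rule (circles, P11; squares, P13; blue, FMRP; red, Hu), ordered by Hu level. Rab6 reaches 1739 and 2167 in Hu, and Rab11fip3 at the right is at 0 in both Hu libraries and at 373 and 340 in FMRP.

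Among the Rab-binding proteins, Rab11fip3, an adaptor that binds Rab11 on recycling endosomes, was higher in FMRP. It carried 3, 8, 4, 6 and 4 tags in the 454 FMRP libraries, 10 and 15 in those on Illumina, and 0 in both Hu libraries. It thus had tags in all 7 FMRP libraries on the transcript lists. Against a floor of 3 Hu tags over both libraries, its level was 10.9-fold higher in FMRP (edgeR adjusted p = 0.00223). Scaled by library totals this was 8.90-fold, and neither value covers counting error in the FMRP tags. All of these tags lie on a predicted RefSeq transcript without a length in the authors' gene table, and that table lists the gene at 0 FMRP tags. The gene passed the filter on low counts through FMRP alone, so its direction is set in part by the filter. It did not pass the filter without the P13 library of either protein.

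The other binding proteins were mixed. Rab3gap2, a subunit of the Rab3 GTPase-activating complex, had 12 and 9 FMRP tags and 2 and 6 Hu tags. Both its FMRP levels (448 and 204 CPM) lay above both Hu levels (77.3 and 120), as in 21.9% of all genes with an Illumina tag. Its partner subunit Rab3gap1 had 1 and 8 FMRP tags and 0 and 4 Hu tags, and its groups overlapped. Rab11fip5, a further Rab11 adaptor, had 0 and 2 FMRP tags and 0 and 1 Hu tags on Illumina but 4, 2 and 5 in the monoclonal P15, monoclonal P25 and polyclonal P25 libraries on 454. Rab11fip4 had 9 and 4 FMRP tags and 14 and 10 Hu tags, with a log2 ratio of -0.55 (SE 0.74) that did not pass (edgeR adjusted p = 0.524). None of Rab3gap2, Rab3gap1 and Rab11fip5 passed the filter on low counts.

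Proteins that regulate or bind Rab GTPases were read from 4 lists, of which 123 genes are reported here. Of these, 94 had a tag and 15 could be tested. Of the 15, 9 were called higher in FMRP, against 33.6% of all genes tested, and the other 6 were not called in either direction. The median log2 ratio was 2.28, against -0.16 over all genes tested. All 9 passed the filter on low counts through FMRP alone, and Sbf1, Madd, Tbc1d9b and Sgsm2 had 0 to 2 tags in each Hu library. The count and median are thus set in part by the filter and are not a result about these lists. Of 7 exchange factors tested, 5 were called higher in FMRP. Of 3 GTPase-activating proteins 2 were, and of 5 effectors 2 (Rims1 and Rph3a). The share over all genes tested was 33.6%, and 2 of 5 effectors lies near it. A difference between these genes and the GTPases was not tested.

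The genes with the largest ratios were exchange factors and GTPase-activating proteins. Sbf1, a DENN-domain protein of the myotubularin family, had 28 and 65 FMRP tags and 0 and 2 Hu tags on Illumina (log2 ratio 5.73, SE 0.97, edgeR adjusted p = 0.00223). Its relative Sbf2 had 28 and 15 FMRP tags and 0 and 4 Hu tags (log2 ratio 3.85, SE 0.97, edgeR adjusted p = 0.00882). Madd, the exchange factor for Rab3 and Rab27, had 21 and 32 FMRP tags and 0 and 2 Hu tags (log2 ratio 4.96, SE 0.95, edgeR adjusted p = 0.00281). In these 3 genes, and in the GTPase-activating proteins Tbc1d9b (32 and 37 against 0 and 2) and Sgsm2 (10 and 19 against 0 and 1), both FMRP libraries lay above both Hu libraries. This held in 2265 of all 10338 genes with an Illumina tag (21.9%), and the genes named here were picked for their large ratios. Their counting intervals are wide at so few Hu tags: the normalized FMRP over Hu ratio of Sbf1 was 60.8, with an exact interval from 16.4 to 510. The call of Sbf2 was lost without the P11 Hu library (adjusted p = 0.0865).

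**Figure D3:**
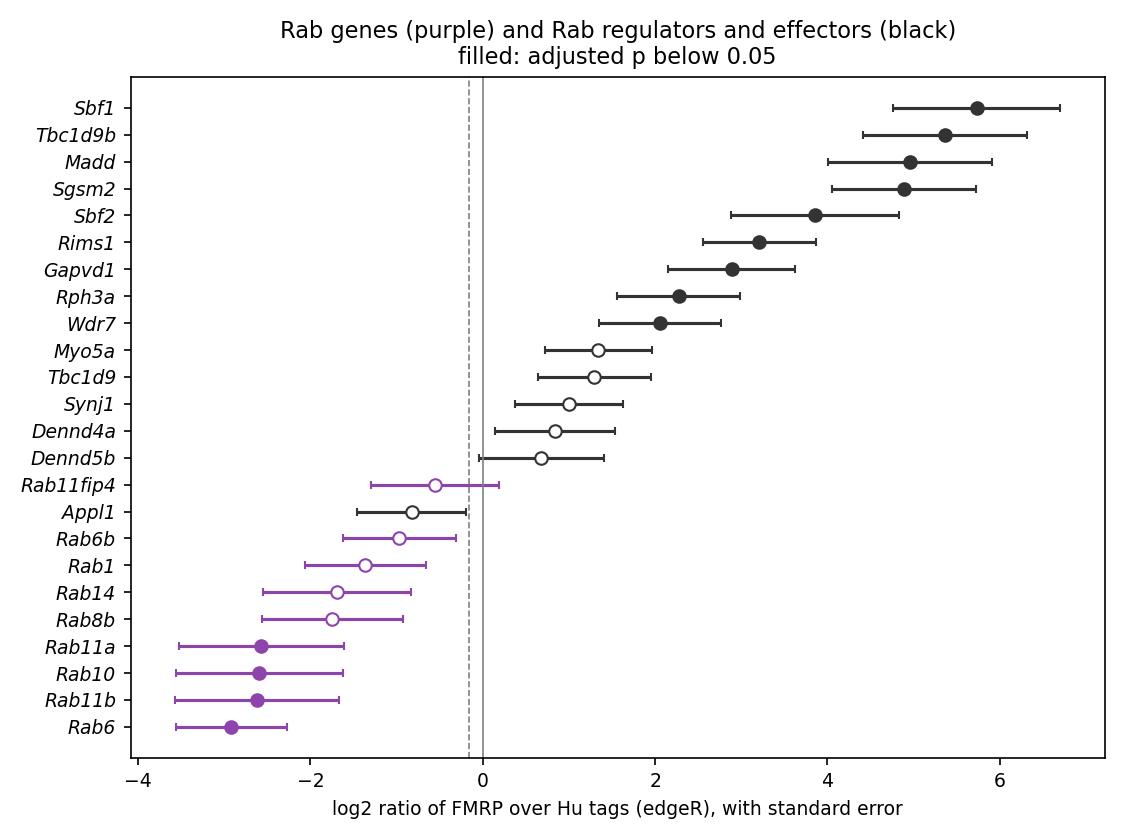
Log2 ratio of FMRP over Hu tags with its standard error from edgeR for 9 of the 10 tested Rab genes (purple) and 15 tested Rab regulators and effectors (black); filled points have an adjusted p below 0.05, and the dashed line is the median of all genes tested (-0.16). The 8 tested GTPases range from Rab6b at -0.97 to Rab6 at -2.92, and all but Rab6b passed the filter through Hu alone. Rab8b, Rab10, Rab11a and Rab11b had 0 FMRP tags at P11. Rab11fip3 is left out because its Hu libraries hold 0 tags.

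FMRP tags on the GTPase mRNAs lay partly in and partly outside coding sequence. The authors counted 238 FMRP tags on GTPases with a length, 69 of them in coding sequence (29.0%). By library, coding tags were 1 of 4, 4 of 16 and 6 of 7 in monoclonal P14, polyclonal P14 and monoclonal P15, 7 of 8 and 3 of 9 in monoclonal P25 and polyclonal P25, and 19 of 41 and 29 of 153 on Illumina at P11 and P13. The P13 library on Illumina alone held most of these tags, and its coding share of 19.0% was the lowest. Without it, 40 of 85 tags (47.1%) were in coding sequence.

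Since GTPase coding sequences are short, each library was also set beside the share that its own tags would give if spread evenly along their transcripts. On average over the libraries this was 25.1%, against an observed 46.0% ± 29.1 (SD, n = 7). The observed share was above it in 4 of 7 libraries, with 46.3% against 22.8% in P11 and 19.0% against 23.2% in P13 on Illumina. Over all genes the observed share was 81.1% ± 5.55 (SD, n = 7) against 56.02%, and above it in 7 of 7 libraries. Binding proteins had 39 of 50 tags in coding sequence. The P13 library was also the lowest over all genes, with 69.7% of tags in coding sequence against 81.6% in P11. With 4 to 16 GTPase tags in each 454 library, their shares have wide intervals, such as 4.56% to 69.9% for monoclonal P14.

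**Figure D4:**
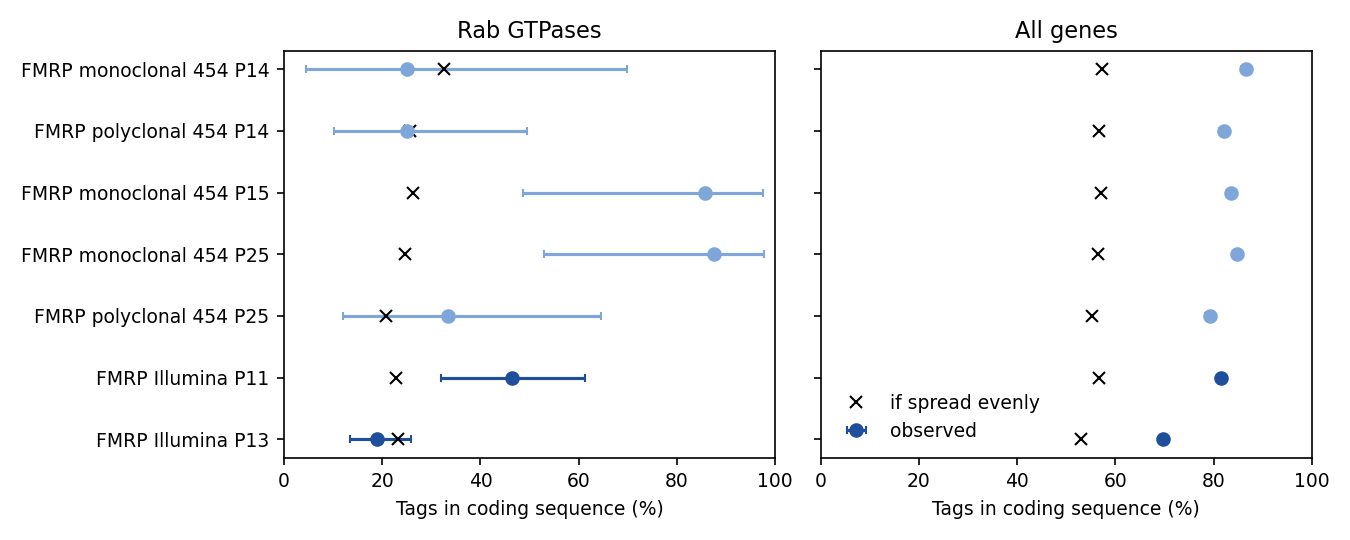
Share of FMRP tags in coding sequence (%) in each of the 7 FMRP libraries for Rab GTPases (left) and all genes (right), with 95% Wilson intervals, and the share an even spread along the tagged transcripts would give (crosses). For all genes the observed share exceeds the cross in 7 of 7 libraries, and for the GTPases in 4 of 7.

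Hu tags lay almost wholly beyond the first part of the GTPase transcripts. Coding starts are not given in the sources used here, so the distance of a tag's middle from the first base of the transcript was set against the coding length. Of 770 Hu tags on GTPases, 8 (1.04%) lay within the coding length of the transcript start, against 42 of 191 FMRP tags on Illumina (22.0%) and 26 of 57 on 454 (45.6%). A tag more than 500 nt past the coding length is outside coding sequence unless the 5′ UTR exceeds 500 nt. Such tags made up 76.4% and 73.7% of Hu tags at P11 and P13, 40.9% and 60.5% of FMRP tags on Illumina, and 24.98% ± 13.03 (SD, n = 5) on 454. The Hu libraries lay above all FMRP libraries. For all genes together the same measure averaged 72.5% in Hu, 16.0% in FMRP on Illumina and 9.91% on 454.

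Rab6 shows the contrast between libraries most plainly. Its coding length is 733 nt on a transcript of 3510 nt. None of its 153 Hu tags had its middle in the first 733 nt. All 5 FMRP tags of the P11 library did, and 1 of 10 of the P13 library. The densest 100 nt of FMRP tags, at 429 to 528 nt, held 8 tags over the 7 libraries and 0 Hu tags. The densest 100 nt of Hu tags, at 2426 to 2525 nt, held 10 tags from P11 and 26 from P13, and 1 FMRP tag.

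Rab11fip4, with a coding length of 1908 nt on 3145 nt, split in the same way. All 9 FMRP tags from P11 and 2 of 4 from P13 lay in its first 1908 nt. None of its 24 Hu tags did, and 18 of them lay at 2369 to 2468 nt.

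The densest 100 nt of Hu tags was picked on each transcript from the tags of both Hu libraries together. In the 12 GTPases with 10 or more Hu tags, it held 21.3% to 66.1% of the gene's Hu tags (median 30.9%). It held tags of both libraries in all 12, with as few as 1 and 2 in Rab18. Since the stretch was picked for its tags, this does not measure how far the libraries agree. The same values over all genes were not taken. The most concentrated was Rab11b, with 15 and 26 of its 62 Hu tags at 913 to 1012 nt of a 6065 nt transcript. On the genome, however, only 18 Hu and 7 FMRP tags lay within the Rab11b bounds, 17 of the Hu tags at chr17:33884523-33884622 (minus), and with genomic tags the gene could not be tested. Rab10 had 10 tags of each library at 1630 to 1729 nt, and Rab11a 10 of each at 1348 to 1447 nt. Rab14 had 8 and 17 at 1399 to 1498 nt. On the genome (mm9), the densest 100 nt of Hu tags in Rab10 was chr12:3249193-3249292 on the minus strand, with 21 of 59 tags. In Rab11a it was chr9:64564001-64564100, also minus, with 18 of 61, and in Rab6 it was chr7:107789225-107789324 on the plus strand, with 24 of 137. Rab3c, a synaptic vesicle GTPase with 3 Hu tags on its listed transcript, had 40 Hu tags on the genome within its gene bounds, 20 of them at chr13:110851737-110851836 (minus).

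A larger share of P13 than of P11 FMRP tags on GTPases lay beside Hu tags. In P13, 80 of 147 FMRP tags (54.4%, 95% Wilson interval 46.4% to 62.3%) had their middle within 50 nt of the middle of a Hu tag on the same transcript, against 33.4% if spread evenly. In P11, 7 of 44 did (15.9%, interval 7.93% to 29.4%), against 26.7%. The 454 libraries ranged from 0 of 5 to 3 of 9. Over all genes the shares were 16.2% against 11.3% in P13 and 7.12% against 8.59% in P11. The Hu libraries set against each other gave 72.4% and 66.2% on GTPases, against 33.1% and 21.8% if spread evenly and 70.5% and 50.4% over all genes. In Rab14, the densest FMRP stretch (1472 to 1571 nt) held 5 P13 tags and 22 Hu tags, and in Rab10 the one at 1620 to 1719 nt held 4 P13 tags and 20 Hu tags. These intervals treat tags as independent, cover counting error only, and rest on 1 library at each age. Age, lysate and library cannot be told apart.

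**Figure D5:**
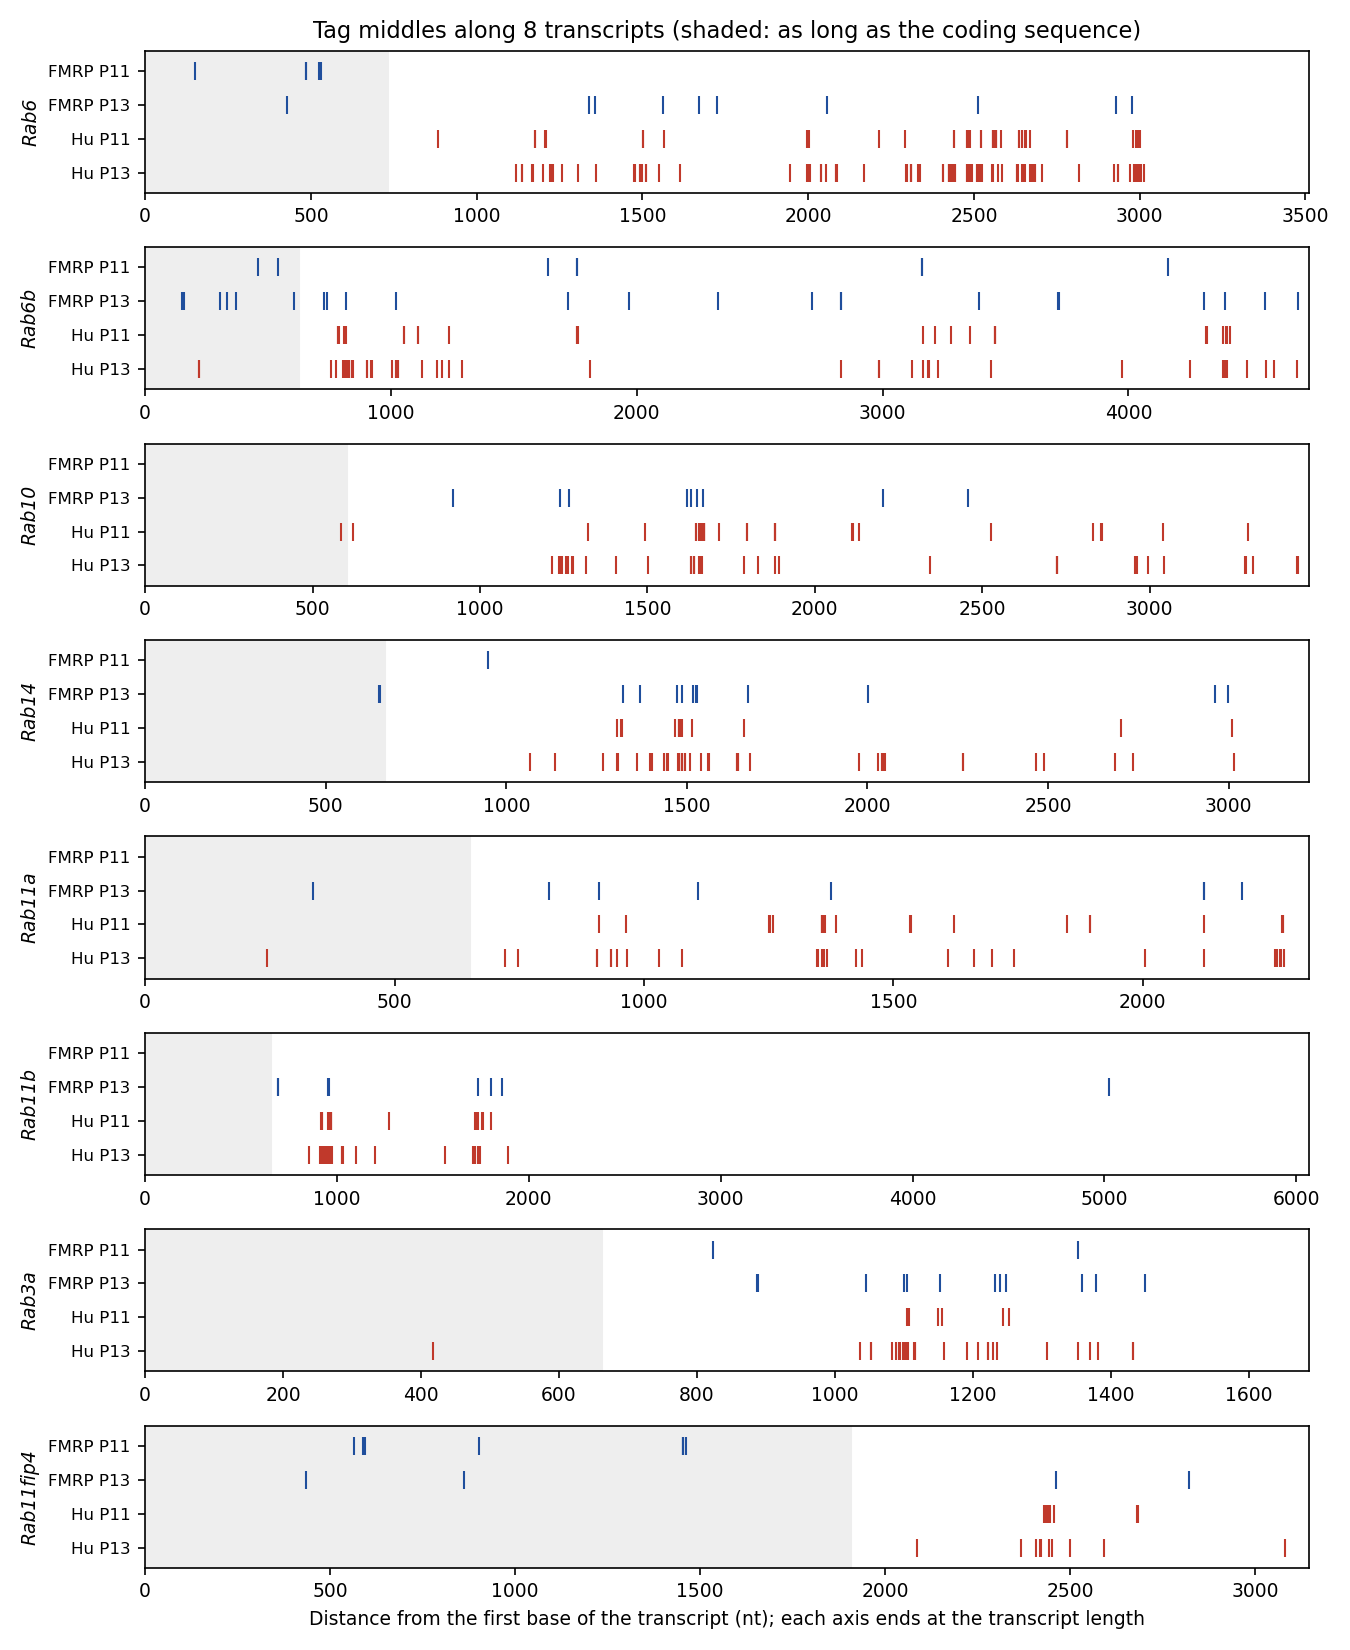
Middles of tags along 8 Rab transcripts in the 4 Illumina libraries (blue, FMRP; red, Hu), as distance in nt from the first base, with a shaded stretch as long as the coding sequence that does not mark its true start. The 153 Hu tags of Rab6 all lie beyond the shaded stretch and the 5 P11 FMRP tags within it; in Rab14, 5 of the 13 P13 FMRP tags lie at 1472 to 1571 nt, beside 22 Hu tags.

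Along the whole transcript, the median Hu tag on Rab genes lay at 0.570 and 0.594 of the length in the 2 libraries, close to 0.614 on average over all genes. The median FMRP tag lay at 0.290 in P11 and 0.474 in P13 on Illumina and at 0.283 ± 0.104 (SD, n = 5) on 454. Member by member the order was less clear. In 7 of the 12 GTPases with 10 or more Hu tags, the median Hu tag lay farther toward the 3′ end than the median FMRP tag on Illumina. The Hu medians of these genes ran from 0.159 of the length in Rab11b to 0.9501 in Rab21. In Rab21 the densest 100 nt of Hu tags, at 1723 to 1822 nt of 1824 nt, held 2 from P11 and 24 from P13. Tag lists hold unique placements, and Rab paralogs such as Rab1 and Rab1b have similar coding sequences. Whether tags from shared stretches were lost was not tested.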

How the data were processed

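Tags were placed with Novoalign on mm9, per the submitters' processing notes, which give no version. The deposited lists give unique tags on the genome and on RefSeq transcripts. A line was counted as 1 tag. The score that the authors deposited beside Illumina tags has no stated meaning and was not used. FMRP counts over whole transcripts and coding sequence, lengths, mm9 bounds and an array intensity came from the gene table the authors deposited. Samples, columns and 4 groups were matched by antibody, age and protocol. Transcript tags were summed per gene, leaving out 1033 of 177620 tags on 207 accessions with no gene. The test across genes used edgeR 4.0.16 (R 4.3.3) on the counts of the 4 Illumina libraries (TMM, filterByExpr, quasi-likelihood, Benjamini-Hochberg, two-sided), checked on simulated data. DESeq2 1.42.0 was an alternative. The lysate pairs the samples per the series text (deviations of the P11 samples correlate at 0.16 over 1015 genes). Genomic tags were summed for 14390 of 18240 genes with a known strand, taken from a GRCm38 table by gene identifier. Shares have 95% Wilson intervals.

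Members and lists were chosen with earlier results of these data known. Named were Rab genes that passed, the 10 with most FMRP tags, the 10 with most Hu tags, and up to 5 list genes per direction. An item of the lists is not reported here and is left out of their counts. The shares without Rab11fip3, the distance past the coding length, the 50 nt measure and the 100 nt windows were chosen after seeing the data, and Rab3c was singled out after its values were seen. No sequences of mm9 transcripts were used here.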

Additional observations from a re-analysis of the deposited data

How the results depend on the processing

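Without each Illumina library in turn, all genes higher in FMRP numbered 214 to 429 (341 with all 4) and higher in Hu 77 to 204 (277). Rab genes higher in FMRP numbered 0 to 1 and in Hu 1 to 7, and Rab regulators and effectors higher in FMRP 5 to 12. The count of 7 Rab genes came without the P13 FMRP library, the count of 1 without the P11 FMRP library, and 2 without either Hu library. DESeq2 called 128 genes higher in Hu and 334 in FMRP. With no filter 155 genes and 1 Rab gene were higher in Hu. Adding the 454 libraries with a platform term left 202 genes tested: 78 higher in FMRP, among them 3 regulators, and 68 in Hu. Only 1 Rab gene was tested there, and it was higher in Hu, so Rab11fip3 was not tested. Genomic tags gave 0 Rab genes higher in FMRP, where Rab11fip3, without mm9 bounds, was not tested. The replicate block gave 331 and 269 genes and changed no call of a named gene but that of Rab14 (adjusted p = 0.0426). Over all genes tested the log2 ratio had a median of -0.16, and of 0.21 with DESeq2 size factors or -0.38 with library totals; Rab6 kept its direction under these. Rab14 and Rab8b passed with library totals (0.0349 and 0.0253). Rab11fip4 ranged from -1.11 to 0.62 with 1 library left out, the latter without the P13 FMRP library (adjusted p = 0.570). Rab11a missed the threshold with DESeq2 (0.0526), and Rab10, Rab11b and Rab11a with no filter (0.0733, 0.0733 and 0.0822). Over GTPases alone the share of tags was 0.249% for FMRP on Illumina, 0.181% on 454 and 1.00% for Hu, against 0.367%, 0.326% and 1.06% over all Rab genes, and the Hu share was 0.870% without Rab6. Counting tags past the coding length by 1000 nt gave 35.6% for FMRP on Illumina and 52.3% for Hu, and 300 nt gave 89.5% for Hu; these were chosen after seeing the data. Of 12 alternatives, those that left out libraries tested fewer samples; other causes were not tested. A GTPase with 0 tags in 1 library may hold up to 3, which limits all genes but the most tagged.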

Other observations

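Rab7, the late endosome GTPase, is listed at 0 FMRP tags in the authors' gene table, and the transcript lists hold 3, 1 and 1 tags in the monoclonal P14, polyclonal P14 and monoclonal P25 libraries and 0 in the other 4 FMRP libraries and both Hu libraries. Rab5a, the early endosome GTPase with an array intensity of 1341, had 8 Hu tags, all from P13, and 0 FMRP tags. Rab15, listed with 8 FMRP tags in the authors' gene table, had 0 tags on the transcript lists. Rab11b, with 62 Hu tags on its transcript and 18 on the genome, had an array intensity of 87.5, below the median of 113 over all genes in the table, and Rab8b, with 30 Hu tags, one of 115. These genes were chosen after their values were seen.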
